A study of Homo sapiens with 54 samples.

Results

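MYC, CCND1, CCNE1, CDKN1A, CDKN1B, EGFR and ERBB2 are 7 of the 20037 protein-coding genes examined, chosen by name as regulators of growth and the cell cycle. Around each gene, all ChIP-seq regions with at least 1 base within 50 kb of its RefSeq span were taken from 16 peak lists, and this gave 574 of 518593 regions. The lists came from T47D, a human breast cancer cell line, treated for 1 h with ethanol as vehicle or with R5020, a synthetic progestin that activates the progesterone receptor (PR). No other agent separated the groups, and the cells had been grown in a minimal Eagle's medium with serum and insulin. Chromatin was immunoprecipitated with 8 antibodies, against PR, Maf1, acetylated lysine 27 of histone H3 (H3K27Ac), Brf1 and 4 subunits of RNA polymerase III (POLR3A, POLR3G, POLR3GL and POLR3C), in 48 libraries beside 6 input libraries. Each antibody and treatment had 3 libraries and 1 list, so the values carry no spread between replicates and no p-value could be given. For 4 libraries titled R5020 (replicate 1 of POLR3G, of POLR3GL and of POLR3C, and replicate 2 of POLR3C) the treatment tag says ethanol, and the groups follow the titles.

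Progestins are known to send breast cancer cells first into and then out of the cell cycle. Cyclin D1 (CCND1) with its kinases and cyclin E1 (CCNE1) drive cells from G1 into S phase, and p21 (CDKN1A) and p27 (CDKN1B) inhibit cyclin-dependent kinases. MYC is a transcription factor that raises growth and ribosome production and also stimulates RNA polymerase III, while Maf1 represses that polymerase. EGFR and ERBB2 are receptor tyrosine kinases of the same family at the cell surface. PR is a hormone-bound transcription factor, and H3K27Ac marks active promoters and enhancers.

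After R5020 every one of the 7 genes had more PR regions than with vehicle, and so did nearly every other gene in the genome. Maf1 regions were also more numerous at all 7, at low counts, as they were at 67.7% of protein-coding genes. H3K27Ac was already present at all 7 start sites with vehicle, against 68.0% of protein-coding genes, and its regions numbered 110 with vehicle and 136 with R5020. POLR3G regions were fewer at 6 of the 7 genes, against 43.3% of protein-coding genes, with most of the difference at ERBB2. These shares are not alike, as 33.1% of protein-coding genes had no vehicle POLR3G region to lose and each of the 7 had at least 1. No region of POLR3A, POLR3C or POLR3GL lay near any of the 7 genes, and Brf1 had 1, at MYC, in lists with few regions near any gene.

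Sequences upstream of 3 start sites show the DNA under these regions at the genes with the strongest PR regions over a start site (EGFR and CDKN1A), and at CCNE1, which had PR there in both treatments. They are the 250 bases before each start in the RefSeq promoter table of GRCh38.p14, all on the plus strand, at chr7:55018767-55019016 for EGFR, chr6:36678464-36678713 for CDKN1A and chr19:29811741-29811990 for CCNE1. Capitals mark GGGCGG on either strand, the GC box known to be bound by Sp1-type factors. Matches that overlap run together in 1 block of capitals.
EGFR upstream: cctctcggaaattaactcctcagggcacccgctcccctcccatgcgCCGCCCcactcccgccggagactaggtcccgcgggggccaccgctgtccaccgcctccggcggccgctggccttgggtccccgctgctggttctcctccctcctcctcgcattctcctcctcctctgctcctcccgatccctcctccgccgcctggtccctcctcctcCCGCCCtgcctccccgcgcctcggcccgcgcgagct
CDKN1A upstream: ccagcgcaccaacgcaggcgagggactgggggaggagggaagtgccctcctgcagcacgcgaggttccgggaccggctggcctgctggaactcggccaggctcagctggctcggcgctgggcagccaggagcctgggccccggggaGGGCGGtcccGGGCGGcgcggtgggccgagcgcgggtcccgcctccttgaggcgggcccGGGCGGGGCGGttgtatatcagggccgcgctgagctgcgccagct
CCNE1 upstream: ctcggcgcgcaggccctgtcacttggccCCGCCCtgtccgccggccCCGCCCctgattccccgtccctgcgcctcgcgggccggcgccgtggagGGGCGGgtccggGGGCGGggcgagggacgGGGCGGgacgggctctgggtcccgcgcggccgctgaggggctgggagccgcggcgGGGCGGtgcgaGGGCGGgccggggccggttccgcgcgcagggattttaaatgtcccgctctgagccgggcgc
The R5020 PR region covered the last 140 of the 250 bases at EGFR and all 250 at CDKN1A. At CCNE1 a vehicle PR region covered 201 bases and an R5020 PR region 199. An R5020 Maf1 region lay over all 250 bases at CDKN1A and at CCNE1 and over none at EGFR. H3K27Ac differed too: both lists covered the whole EGFR stretch, while at CCNE1 the vehicle list covered 18 bases and the R5020 list 0. At CDKN1A the vehicle list covered all 250 bases and the R5020 list 105.

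Of the 7 genes, 5 matched the promoter table, with 6 start sites in all, since EGFR has a second one. In windows of 250 bases before and 50 after the start, GGGCGG was found upstream 2 times at the main EGFR start, 4 times at CDKN1A, 7 times at CCNE1 and 1 time at CDKN1B. It was found at neither the second EGFR start nor ERBB2. Of all 35116 promoter windows of this length, 45.0% hold it. The core of the steroid response element, ACANNNTGT, is present in 5.37% of all windows and the E-box CACGTG, which MYC can bind, in 7.26%. Neither occurs in any of the 6 windows. TGTTCT, an arm of the steroid response element, is present in 14.8% of all windows on either strand. It occurs 1 time at ERBB2, where it straddles the start site, and 1 time at the second EGFR start, 18 bases after it. GC content of these windows ran from 42.0% at the second EGFR start to 81.0% at CCNE1.

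Within 50 kb of the 7 genes lay 8 PR regions of the vehicle list and 111 of the R5020 list. All 7 genes had more in the R5020 list, against 96.9% of all protein-coding genes, so the direction does not set them apart. The log2 ratio was 3.79 (95% counting interval 2.76 to 4.83), and that of the whole list, from 6663 to 173129 regions, was 4.70, within that interval. A typical member went from 1 to 16 regions by the medians, and a typical protein-coding gene from 0 to 12. The R5020 list was far longer, and read depth is unknown. When it was shortened to its 6663 regions of highest significance, only 1 of these lay near the 7 genes, the EGFR start region, against the 8 of the vehicle list.

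**Figure D1:**
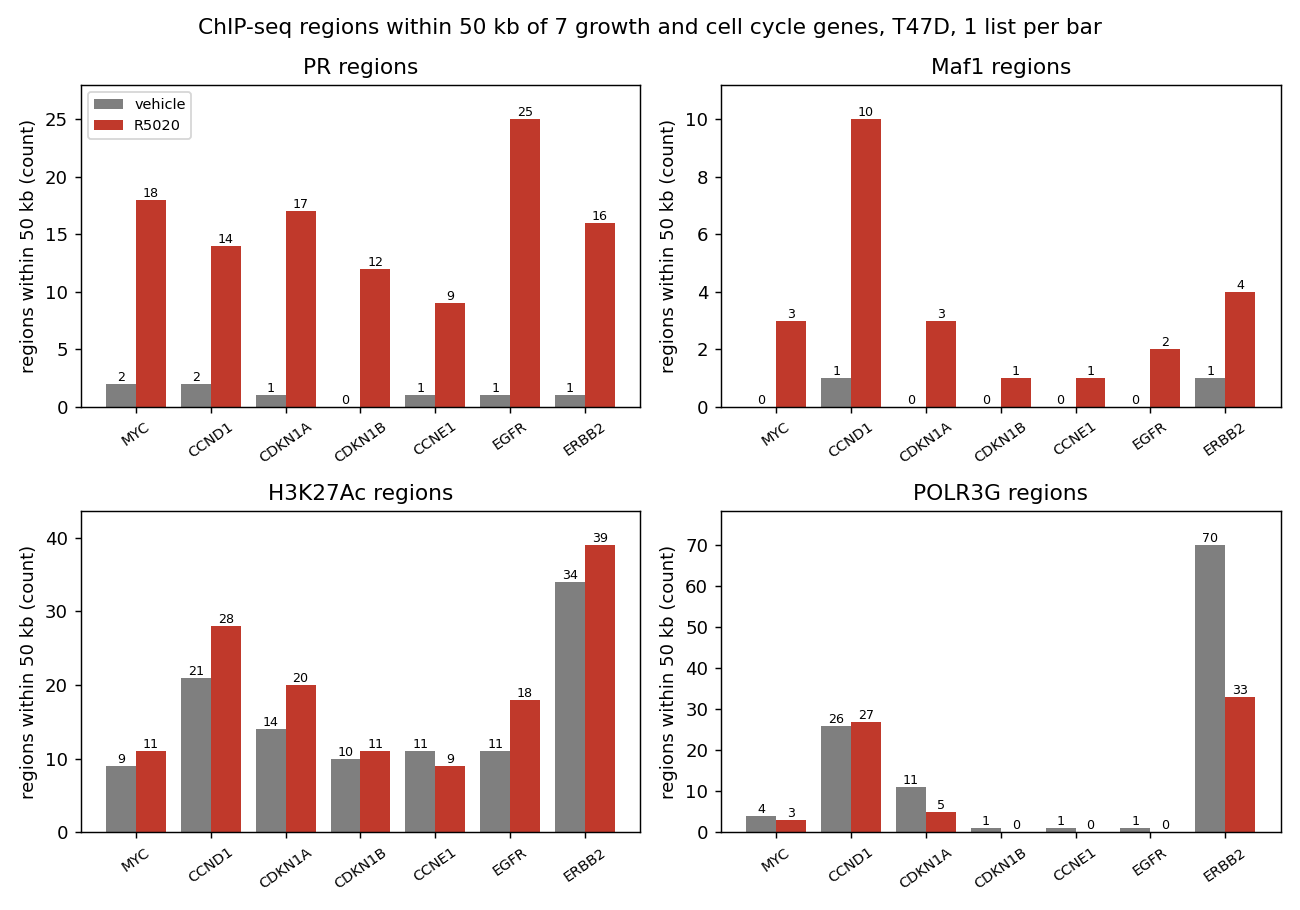
Number of regions within 50 kb of each gene (vertical axis, count) in the vehicle list (grey) and the R5020 list (red) of PR, Maf1, H3K27Ac and POLR3G, 1 list per bar and no replicate error. PR bars stand at 2 or fewer with vehicle and between 9 and 25 with R5020, and the POLR3G bars are highest at ERBB2, 70 with vehicle and 33 with R5020.

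At MYC there were 2 PR regions with vehicle and 18 with R5020, and CCND1 had 2 and 14. CCNE1 had 1 and 9, the fewest with R5020. The inhibitor genes CDKN1A and CDKN1B had 1 and 17 and 0 and 12, so the cyclins and their inhibitors did not separate. EGFR went from 1 to 25 and ERBB2 from 1 to 16. EGFR has the longest window, 293 kb against 105 kb at CDKN1B. Per 100 kb of window the order changed, and MYC led with 16.7 R5020 PR regions, more than 88.3% of protein-coding genes. CDKN1A followed with 15.3 per 100 kb, then CCND1 with 12.4, CDKN1B and ERBB2 with 11.4 each, EGFR with 8.54 and CCNE1 with 8.01. The median of all protein-coding genes was 8.38 per 100 kb, with quartiles of 4.81 and 12.8. Of the 7 genes 6 lay above that median, EGFR barely, and CCNE1 lay below it.

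Strength gave another order. Each region carries the authors' fold, the enrichment of signal over the caller's background, and its significance as -log10 of a q-value. These are the authors' values and are used only within 1 list. The strongest R5020 PR region near ERBB2 had a fold of 39.8, higher than the strongest near 75.5% of protein-coding genes. EGFR reached 32.2, CDKN1A 28.5 and CCND1 28.2, around the median of all genes, 27.0. MYC reached 18.6, CDKN1B 16.1 and CCNE1 only 9.90, which exceeded 14.9% of genes. MYC thus had the densest PR regions of the 7 and only the fifth strongest single region.

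**Figure D2:**
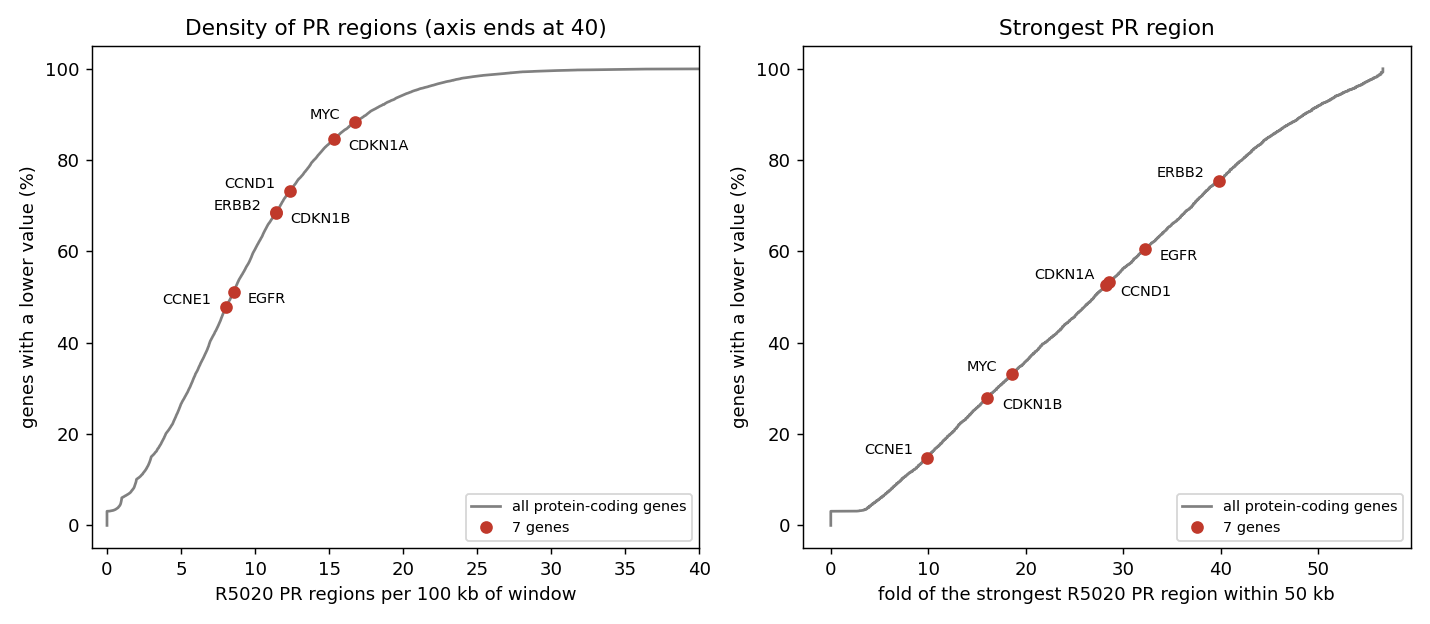
Share of protein-coding genes with a lower value (vertical axis, %) against R5020 PR regions per 100 kb of window (left) and the fold of the strongest R5020 PR region within 50 kb (right). The grey curve is all 20037 genes and the red points are the 7 genes. MYC is highest for density (16.7 per 100 kb) and below the median of all genes for fold (18.6 against 27.0), and ERBB2 is highest for fold (39.8).

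All 7 genes had an R5020 PR region within 1 kb of a start site, against 58.7% of protein-coding genes. With vehicle, CDKN1A, MYC and CCNE1 did, 3 of the 7 genes against 13.4%. MYC and CCND1 have no start in the promoter table, so for them either end of the span counted as a start, and positions are given from the lower end. Of the 111 R5020 PR regions, 34 overlapped a member gene, 37 lay before it in the direction of transcription or below the span, and 40 after it. Their folds ran from 2.05 to 39.8 with a median of 5.61.

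At MYC (chr8:127735434-127742951), both vehicle PR regions lay inside the gene, at chr8:127736193-127736401 with a fold of 3.23 and chr8:127737701-127737899 with a fold of 3.10. Both overlapped an R5020 PR region. Close to the start the R5020 list held regions at chr8:127734993-127735397, fold 5.44, and chr8:127735600-127736535, fold 5.15. The most significant region was far off, at chr8:127789454-127790102, 54.3 kb from the start, with a fold of 18.6 and -log10 q of 131. It overlapped no gene and no region of another list. MYC's strongest PR region was thus a distal one that overlapped no H3K27Ac region in either list. A vehicle H3K27Ac region lay close by, at chr8:127788563-127789088, with a fold of 2.95.

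At CCND1 (chr11:69641156-69654474), the R5020 PR regions near the lower end of the span were weak, with folds of 3.49 and 3.04. A strong one covered the upper end, at chr11:69653831-69655166, with a fold of 22.8 and -log10 q of 145. Maf1 regions overlapped it in both treatments. The most significant was at chr11:69699049-69700012, 58.4 kb from the lower end and in FGF19, a growth factor gene, with a fold of 28.2 and -log10 q of 211. Of the 2 vehicle regions, that at chr11:69636610-69636815, fold 4.15, overlapped no R5020 PR region. The other, in LTO1 at chr11:69675316-69675528, fold 3.59, did.

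CCNE1 (chr19:29811991-29824312) had its strongest PR regions around the start. The most significant was at chr19:29813020-29813404, fold 9.36 and -log10 q of 45.3, and the highest fold, 9.90, was at chr19:29811300-29811653 before the start. Between them the vehicle region chr19:29811672-29811941, fold 3.49, overlapped an R5020 region at chr19:29811772-29811970 with a fold of 2.62. That R5020 region stood above 1.80% of its list. The upstream sequence printed for CCNE1 lies under this pair.

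CDKN1A (chr6:36676463-36687332) carried the broadest PR region of all 111, 2036 bases at chr6:36678319-36680354. It covered the start with a fold of 28.5 and -log10 q of 213. Inside it, the vehicle list held a short region at chr6:36678727-36678906, with a fold of 2.81 and -log10 q of 1.58, close to the lowest significance any list holds (1.30). A region 35.9 kb before the start at chr6:36642592-36643348 had a fold of 25.2, and regions 45.1 kb before and 49.2 kb after it had folds of 18.1 and 21.4. CDKN1A was therefore flanked by strong R5020 PR regions on both sides as well as covered by one.

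CDKN1B (chr12:12717368-12722369) was the only member with no vehicle PR region. Its R5020 regions at the start were moderate, chr12:12716327-12716677 with a fold of 9.53 and chr12:12716949-12717334 with a fold of 6.91, both over the neighbouring gene GPR19. The most significant lay 24.3 kb after the start, at chr12:12741492-12741846 in APOLD1, with a fold of 16.1 and -log10 q of 74.7. The inhibitors thus differed, with a fold of 28.5 over the start of CDKN1A and at most 9.53 at that of CDKN1B.

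EGFR (chr7:55019017-55211628) had 16 of its 25 R5020 PR regions over the gene itself. The region over the start, chr7:55018877-55019814, had a fold of 28.8 and -log10 q of 303, the most significant PR region near any of the 7 genes. The highest fold, 32.2, was inside the gene at chr7:55177393-55178302, 159 kb from the start, where R5020 Maf1 and H3K27Ac in both treatments overlapped. Other strong regions stood 1.73 kb before the start (fold 21.9), 8.08 kb after it (25.2) and 29.7 kb after it (23.7). The single vehicle region, chr7:55234830-55234999 with a fold of 4.17, lay beyond the gene and overlapped no R5020 PR region.

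ERBB2 (chr17:39688094-39728658) lies among 7 other protein-coding genes within 50 kb, while MYC, CCNE1 and EGFR have none. Its strongest PR region was 11.8 kb before the start in PGAP3, at chr17:39674969-39676516, with a fold of 39.8 and -log10 q of 267. A second at chr17:39667431-39667967 had a fold of 29.0. The region over the only start in the promoter table, chr17:39686934-39688151, had one of 23.0. The most significant vehicle H3K27Ac region near ERBB2 lay elsewhere, inside the gene, at chr17:39699109-39701983 with a fold of 16.7. R5020 PR regions overlapping it had folds of 2.05, the lowest of the 111, and 11.1. The vehicle PR region, chr17:39737805-39737976 in GRB7, fold 4.71, overlapped an R5020 PR region. Over the 7 genes 6 of 8 vehicle PR regions did so, 75.0% (Wilson interval 40.9 to 92.9), against 91.6% of the whole vehicle list, which lies inside that interval.

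**Figure D3:**
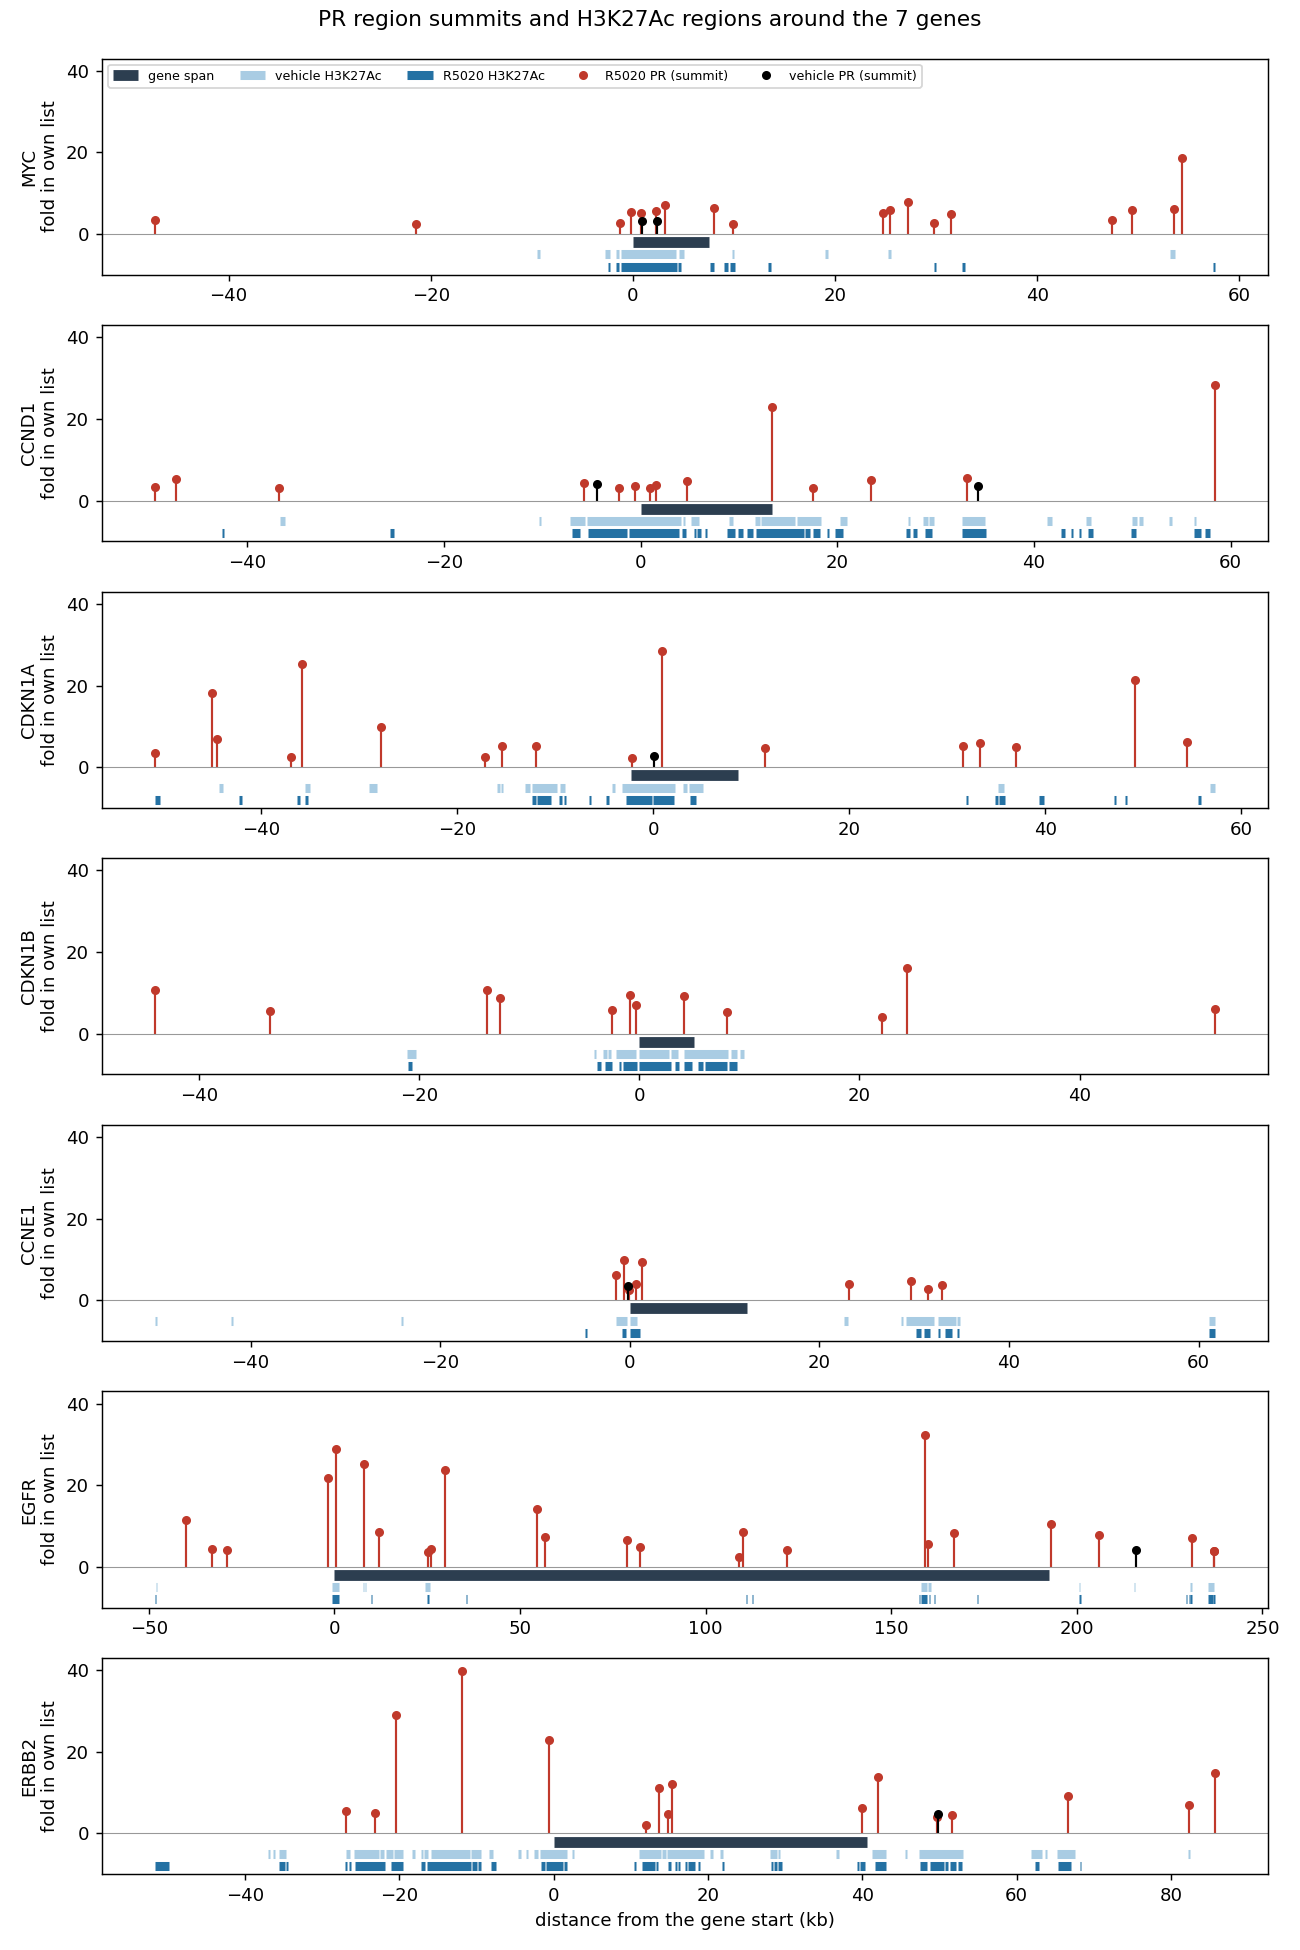
Position of PR summits (dots on stems, height is the authors' fold within each list) and of H3K27Ac regions (pale blue vehicle, dark blue R5020) by distance from the gene start in kb, or from the lower end of the span for MYC and CCND1. Dark bars are gene spans, red dots R5020 and black dots vehicle. Black dots stay below a fold of 5 in every panel, and the R5020 dots reach 28.8 at the EGFR start, 28.5 at CDKN1A and 39.8 before ERBB2.

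Near the 7 genes the vehicle list held 2 Maf1 regions and the R5020 list 24, a log2 ratio of 3.58 (1.50 to 5.67), beside 2.90 for the whole list. All 7 genes had more, against 67.7% of protein-coding genes, but at CDKN1B and CCNE1 the difference was a single region. CCND1 alone went from 1 to 10, and without it the other 6 genes had 1 and 14. ERBB2 went from 1 to 4, MYC and CDKN1A from 0 to 3 each, and EGFR from 0 to 2. At a start site an R5020 Maf1 region was found at 6 genes, all but EGFR, against 35.4% of protein-coding genes. The number was 4 at -log10 q of at least 5, 2 at a fold of at least 5 and 0 with equal numbers of top regions. At CCND1 it lay only at the upper end of the span, so CCND1 is among the 6 only because either end counted as a start.

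The strongest Maf1 region near the 7 genes was the one at the upper end of CCND1, chr11:69654193-69655198, with a fold of 7.78 in the R5020 list. The vehicle list had chr11:69654930-69655157 there, with a fold of 3.02. CDKN1A was second, at chr6:36678426-36678777 over the start, with a fold of 6.64 and no vehicle region. The strongest at CDKN1B, ERBB2, MYC, EGFR and CCNE1 had folds of 4.93, 4.74, 4.34, 3.70 and 3.35, and the median of the list was 4.30. Only the 2 regions at CCND1 and CDKN1A had a fold of at least 5.

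Maf1 and PR shared positions at each gene, but not at every region. Of the 24 R5020 Maf1 regions, 16 overlapped an R5020 PR region, 66.7% (46.7 to 82.0), against 82.1% of the whole Maf1 list, just above that interval. All 4 at ERBB2 did, and 5 of 10 at CCND1. Of the 10 at CCND1, 9 overlapped a vehicle H3K27Ac region. Over the 7 genes 20 of 24 did, 83.3% (64.1 to 93.3), beside 70.8% of the whole list. In the other direction, 14 of the 111 PR regions overlapped Maf1, 12.6% (7.66 to 20.1), and 10.2% of all PR regions did.

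For H3K27Ac the lists held 110 and 136 regions near the 7 genes, which gives a log2 ratio of 0.306 (-0.0565 to 0.669), an interval that includes 0. The whole list had 0.341. That reading depended on the setting: the ratio was 0.507 (0.0181 to 0.996) within 10 kb and 0.306 (0.0100 to 0.602) within 100 kb, and there the intervals exclude 0. Among regions with a fold of at least 5 it was -0.0444 (33 and 32 regions), and with equal numbers of top regions -0.0132 (110 and 109). More regions were listed at 6 genes, against 56.0% of protein-coding genes, and fewer at 1, CCNE1, against 18.6%. Summed over the 7 genes, the sequence they covered went the other way, from 122 kb to 107 kb, as more but shorter regions were listed. It fell at CDKN1A, CDKN1B, CCNE1 and ERBB2, most at ERBB2, from 43.6 to 34.7 kb. It rose at MYC (8.30 to 8.35 kb), CCND1 (26.4 to 27.4 kb) and EGFR (9.01 to 10.0 kb). An R5020 H3K27Ac region lay at the start of all 7 genes, against 69.1% of protein-coding genes, and each of the 7 had a vehicle one there too, against 68.0% of them.

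CDKN1A shows how the counts and the covered length part. With vehicle, 1 region, chr6:36675507-36680908, spanned its start with a fold of 10.6. With R5020, 2 regions of fold 9.71 each stood in its place, chr6:36675882-36678541 and chr6:36678687-36680864, and the PR and Maf1 regions crossed the gap between them. Its count went from 14 to 20 and its covered length from 14.5 to 12.0 kb. CCNE1 went from 11 to 9 regions and from 8.96 to 4.89 kb, and the strongest region before its start had a fold of 15.4 with vehicle and 11.0 with R5020.

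At MYC a single broad region over the gene was listed in both treatments, chr8:127734275-127739666 with a fold of 13.4 and chr8:127734288-127739781 with a fold of 18.7, in 9 and 11 regions in all. EGFR had 11 and 18. Over its start the vehicle region chr7:55018427-55020368 had a fold of 5.08, higher than 73.6% of its list, and the R5020 region chr7:55018454-55020354 had 11.6, higher than 91.7% of its own. CCND1 had 21 and 28 regions, CDKN1B 10 and 11, and ERBB2 34 and 39, the most of the 7. Folds of separately called lists do not show a change, so these values stand side by side only.

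Of the 110 vehicle H3K27Ac regions, 69 overlapped an R5020 one, 62.7% (53.4 to 71.2), and 67.2% of the whole list did. The share was highest at CDKN1B, 8 of 10, and lowest at CDKN1A, 6 of 14, and their intervals overlap (49.0 to 94.3 and 21.4 to 67.4). At ERBB2 35 of 39 R5020 regions overlapped a vehicle one, while at EGFR 10 of 18 and at CDKN1A 11 of 20 did not. Of the 44 R5020 H3K27Ac regions with no vehicle counterpart, 6 overlapped an R5020 PR region, 13.6% (6.40 to 26.7). Of the 92 with a counterpart, 42 did, 45.7% (35.9 to 55.8). The whole lists show the same order, 21.3% and 47.9%.

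R5020 PR regions near the 7 genes lay in vehicle H3K27Ac in 55 of 111 cases, 49.5% (40.4 to 58.7), above the 26.0% of the whole list, which is outside that counting interval. Neighbouring regions are not independent, and the PR and H3K27Ac lists were compared at genes that all carry H3K27Ac. The whole list holds PR regions at any distance from genes, and no share was computed for those within 50 kb of other genes. Near the 7 genes the share was 64.3% within 10 kb and 43.3% within 100 kb. The values therefore do not show that the excess belongs to these genes. ERBB2 had 14 of 16 (87.5%, 64.0 to 96.5) and EGFR 7 of 25 (28.0%, 14.3 to 47.6), and those intervals do not overlap. CCNE1 had 6 of 9, CCND1 9 of 14, MYC 8 of 18, CDKN1B 5 of 12 and CDKN1A 6 of 17. ERBB2 also had the most H3K27Ac sequence of the 7, 43.6 kb with vehicle against 9.01 kb at EGFR in a window longer than its own, and its part in the shares was not tested. When the PR and H3K27Ac lists were both cut to a fold of at least 5, the share over the 7 genes was 34.3%, and no whole-list share was computed at that cut.

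POLR3G regions, in lists whose R5020 group includes a library tagged as ethanol, went from 114 to 68, and the log2 ratio was -0.745 (-1.18 to -0.312). The whole list had -0.318, just inside that interval. With equal numbers of top regions the ratio was -0.467 (-0.917 to -0.0170, 94 and 68 regions). In the full lists fewer were listed at 6 genes, against 43.3% of protein-coding genes, and more at 1, CCND1, against 17.6%. ERBB2 went from 70 to 33 regions and from 39.9 to 10.1 kb, and more vehicle regions stood there than near 99.0% of genes. Without ERBB2 the counts were 44 and 35 and the ratio -0.330 (-0.971 to 0.310), not detectable beyond counting error. CCND1 had 26 and 27, CDKN1A 11 and 5, MYC 4 and 3, and CDKN1B, CCNE1 and EGFR 1 and 0 each.

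At a start site POLR3G was listed at CDKN1A, MYC, CCND1 and ERBB2 in both treatments, 4 of 7 genes against 47.4% of protein-coding genes with vehicle and 40.7% with R5020. At CDKN1A the regions over the start had folds of 3.28 and 4.41, the latter at chr6:36678351-36678905 inside the PR region. At CCND1 a vehicle region of fold 4.74, chr11:69637475-69643403, spanned the lower end. R5020 regions within 1 kb of that end had folds of 2.85 and 3.62. The strongest R5020 region near CCND1, fold 4.25, lay 4.72 kb below it. Of the 114 vehicle POLR3G regions 42 overlapped an R5020 one, 36.8% (28.6 to 46.0), against 39.2% of the whole list. No POLR3G region near the 7 genes reached a fold of 5.

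The other polymerase III antibodies gave few regions near any gene. POLR3A, POLR3C and POLR3GL had 0 regions within 50 kb of the 7 genes in either list, and 4.47%, 6.79% and 3.31% of protein-coding genes had one. Brf1, a subunit of the initiation factor that recruits the polymerase to tRNA genes, had 0 with vehicle and 1 with R5020, at MYC, and 4.23% of protein-coding genes had more Brf1 regions with R5020. It lay at chr8:127736157-127736333, 0.760 kb from the start, with a fold of 3.66 and -log10 q of 2.47. PR, Maf1, H3K27Ac and POLR3G regions of the R5020 lists overlapped it, and its fold stood above 33.9% of the Brf1 list.

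At 40 other genes of these pathways, in 7 lists, PR and Maf1 regions were again more numerous with R5020. PR regions were more numerous with R5020 at 40 of 40 (96.9% of protein-coding genes), by a median of 13.0 beside 11.0 over all genes and 15.0 over the 7. Maf1 regions were more numerous at 31 and equal at 9 (67.7% of all genes had more). H3K27Ac regions were more numerous at 26, fewer at 6 and equal at 8 (56.0% and 18.6% of all genes had more and fewer). POLR3G regions were more numerous at 7, fewer at 18 and equal at 15 (17.6% and 43.3%). The median gain of PR regions was 16.5 for the G1/S cyclins and kinases, 15.0 for the MYC network, 14.0 for other growth factor receptors and 13.0 for ERBB receptors and ligands. It was 11.5 for RB and E2F genes, 11.0 for the inhibitors and 7.50 for the S to M cyclins and their kinase, and these differences were not tested. Genes that lie close together share regions, so the 40 are not all separate. Among the inhibitors, CDKN2A and CDKN2B had the same counts in every list and the same highest PR fold, 9.90.

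Single genes of these lists went further than any of the 7. IGF1R, the receptor for insulin-like growth factor, had the largest gains for every antibody described: PR from 7 to 121, Maf1 from 1 to 32, H3K27Ac from 80 to 100 and POLR3G from 20 to 42, in a window of 416 kb. CCND2, the cyclin D2 gene, had the smallest PR gain, from 0 to 1, against 2 to 14 at its relative CCND1. ERBB4 lost the most H3K27Ac regions, 25 to 6, while its PR regions went from 3 to 57, in a window of 1263 kb. EGFR and ERBB2 had more H3K27Ac regions with R5020. CDKN2D, another kinase inhibitor gene, lost the most POLR3G regions of the 40, 33 to 9, fewer than the 37 lost at ERBB2.

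**Figure D4:**
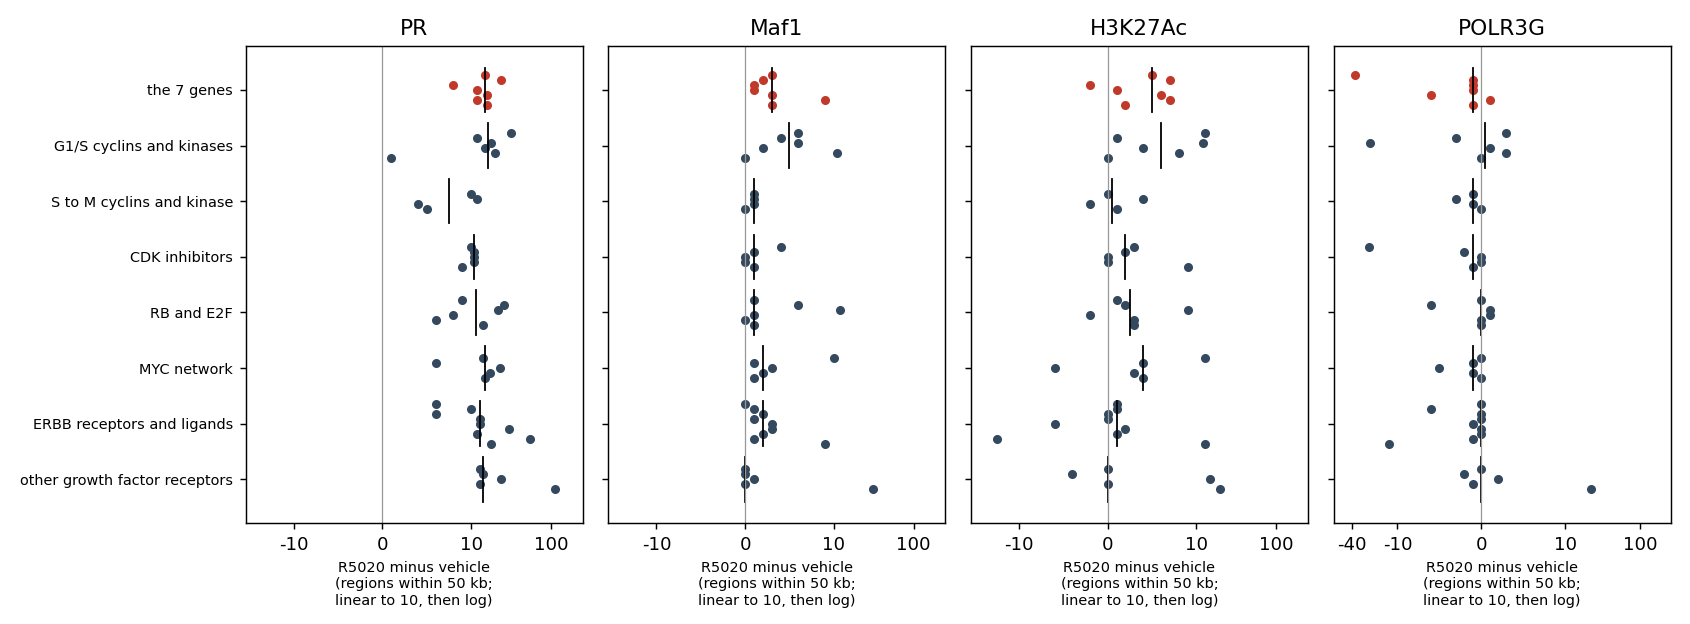
Change in the number of regions within 50 kb (R5020 minus vehicle, horizontal axis, linear to 10 and logarithmic beyond) for the 7 genes (red) and the 40 genes of 7 pathway lists (dark), 1 panel per antibody, 1 dot per gene, with the median as a black line. Every PR dot lies above 0, from 1 at CCND2 to 114 at IGF1R, and the POLR3G dot farthest to the left is ERBB2.

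Over the 16 lists, the gene whose counts were most like those of each member, among protein-coding genes more than 1 Mb away, was BARX2 for EGFR at a distance of 0.263 in log2(count + 1). BARX2 had 25 PR and 18 H3K27Ac regions with R5020, the same as EGFR. ZNHIT6 was nearest to CDKN1B (0.345), HEATR6 to CDKN1A (0.357), LMTK3 to ERBB2 (0.545), TSR1 to CCND1 (0.564) and BBS12 to CCNE1 (0.629). For MYC the nearest was COL28A1, at 0.979. The median distance of all genes lay between 3.98 and 7.11, and the nearest of many genes lies below such a median by construction. As a check of the cell label, H3K27Ac lay at the start of 7 of 7 luminal breast genes in both treatments. It also lay at 3 of 7 genes of other cell types in each, COL1A1 and CDH5 in both. Of all protein-coding genes, 68.0% with vehicle and 69.1% with R5020 had it there, so the check separates cell types only weakly.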

How the data were processed

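ChIP-seq was done in T47D cells with 8 antibodies and 2 treatments, 3 libraries each. Per the submitters' processing notes, cutadapt, Bowtie2 and MACS2 were used on hg38; versions, settings, control libraries and how replicates were combined are not given in the sources used here. The authors deposited 1 peak list per antibody and treatment, with a fold (a ratio of signal over background) and −log10 q per region. Read depth is unknown.

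Here regions on chromosomes 1 to 22, X and Y were counted within 50 kb of each gene, in RefSeq GRCh38.p14, and within 1 kb of its start, and shared at least 1 base when called overlapping. Counts were set beside all 20037 protein-coding genes, of which 15843 had a start in the promoter table and the others used either end. Shares have 95% Wilson intervals and log2 ratios 95% counting intervals, which cover counting error only. Whether libraries came from separate cultures is not stated. Named were all 7 genes, per gene the most significant region and those at the start, every Brf1, POLR3A, POLR3C and POLR3GL region, the pathway genes of largest gain and loss, and 1 nearest gene each. Other regions, and the motif GGGCGG, were chosen after their values were seen. Members and lists were chosen with earlier results of these data known. Counting was tested on simulated data (Python 3.11.15, numpy 2.4.6, pandas 2.3.3).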

Additional observations from a re-analysis of the deposited data

How the results depend on the processing

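No paired analysis was possible because each antibody and treatment has 1 list without replicate columns, so no replicate could be left out either. Of 74 values under other settings, 57 stayed within the counting interval, or within 1.5 times the count, of the value reported. Some of the 57 could not have moved. A count of 0 stays 0 at a shorter distance or a stricter cut, and a count that already includes every gene stays at a wider distance. The 57 thus overstates how stable the results were. With equal numbers of top regions the PR ratio was -3.00 (8 and 1 regions), PR was at 1 start and Maf1 at 0. Maf1 was at 2 starts with a fold of at least 5. Retained vehicle H3K27Ac was 30.9% when overlaps had to reach 50% of each region, 73.7% within 10 kb, 74.1% at -log10 q of at least 5 and 81.8% at a fold of at least 5. Maf1 in PR was 20.8% with 50% shared and 100% (2 of 2) at that fold. PR in vehicle H3K27Ac was 7.21% with 50% shared, 64.3% within 10 kb, 38.5% at that -log10 q and 34.3% at that fold. Brf1 had 0 regions at that -log10 q, and POLR3GL had 1 in each list within 100 kb. A stricter overlap lowers a share by construction. The -log10 q and fold settings cut both lists of a share, so fewer regions remained to be overlapped. How much this contributed was not tested, nor was the cause of the other shifts. No ratio could be had for PR at a fold of at least 5 (0 and 67 regions), for Maf1 at -log10 q of at least 5 (0 and 15), at that fold (0 and 2) or with equal numbers (2 and 0), or for POLR3G at that fold (0 and 0). Leaving out ERBB2 (CCND1 for Maf1) was chosen after seeing the data, and gave ratios of 3.76 for PR, 3.81 for Maf1, 0.352 for H3K27Ac and -0.330 for POLR3G.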
